A study of Mus musculus with 13 samples.

Results

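Chromosome 18 was described through its 300 kb bins in mouse breast tumours profiled for 5-hydroxymethylcytosine (5hmC). All bins of the chromosome whose 5hmC percentage was above 0 in at least 1 tumour were taken, which gave 293 of its 303 bins, and 293 of 8576 such bins over the autosomes and X. The other 10 bins, from position 1 to 3000000, were 0 in all 13 tumours. Of the 293 bins, 269 were above 0 in every tumour. The chromosome was chosen by the measured sFlk1 values: its mean differed more than that of any other between sFlk1 and empty vector tumours. That contrast is therefore given as values without a test, and tests were kept to the Phd2 contrast, which did not enter the choice.

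The 13 breast tumours arose in FVB mice under the PyMT oncogene, from polyomavirus, and had been snap-frozen, 1 tumour per mouse by the titles. In the first model, mice of 16 weeks were PHD2+/+ (n = 3) or PHD2+/- (n = 4) and had received no plasmid. They are called Phd2 wild type and Phd2 heterozygous below, and the labels describe vascularisation and oxygenation as restored in the heterozygous tumours. In the second, mice of 12 weeks with no Phd2 allele named had been injected hydrodynamically with the empty PRRL2 plasmid (n = 3) or with PRRL2-sFlk1 (n = 3), and the labels describe the sFlk1 tumours as more hypoxic. Hydrodynamic injection loads plasmid mainly into liver cells, so that the soluble receptor reaches the tumour through the blood. The promoter behind the oncogene, and whether 1 Phd2 copy was missing from every cell, are not stated. The models differ in age and treatment at once and were not compared with each other. These are whole tumours: a different mix of cells and a different 5hmC level per cell cannot be told apart, and 5hmC in bins of this size is no check of the labelled tissue.

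TET enzymes make 5hmC from 5-methylcytosine, with oxygen, iron and 2-oxoglutarate as cofactors. In most tissues the mark is found along the bodies of transcribed genes and at enhancers, and it is scarce in gene deserts. PHD2 is the oxygen sensor that marks HIF proteins for degradation, and sFlk1 is a soluble form of the main VEGF receptor of endothelial cells, which binds the growth factor and keeps it from the vessel. Mouse chromosome 18 carries several genes of growth control, among them Apc, Smad4 and Dcc, a row of desmosomal cadherin genes and the clustered protocadherins. Values below are the authors' 5hmC percentages in tet-assisted bisulfite sequencing (TAB-seq), a method in which 5hmC is shielded and other cytosines are converted. The file holds no read counts, so depth is unknown and no counting interval can be given. A value of 0 can mean no 5hmC or no data, and zeros enter all means as 0. The number of chromosome 18 bins at 0 ran from 0 (empty vector tumour 3) to 10 (sFlk1 tumour 3) per tumour, with 7 in Phd2 heterozygous tumour 4 and in empty vector tumour 2. Over the 269 bins above 0 in all tumours the Phd2 difference described below was 0.672 percentage points and the sFlk1 difference -0.397.

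The chromosome carried much 5hmC for few genes. Its mean over the 13 tumours was 2.93%, lower among 20 chromosomes than 19 (3.16%), 11 (3.13%) and 13 (2.96%). In 11 tumours it ranked 3 to 5 among the 19 autosomes. It ranked 8 and 6 in sFlk1 tumours 2 and 3. Chromosome 18 lay below 11 and 19 in all 13 tumours. Its gap within tumours to chromosome 13 was -0.0345 percentage points ± 0.0483 (SD over 13 tumours), and it lay above chromosome 13 in 4 of them. To chromosome 2 the gap was 0.0220 ± 0.0738 and to chromosome 9 it was 0.0282 ± 0.0678, with chromosome 18 above in 9 of 13 tumours each. These gaps were not tested. The gene table used (RefSeq, GRCm38.p6) places 511 protein-coding genes on chromosome 18. That is 5.63 per Mb, at the low end of the genome with X (5.65) and chromosome 12 (5.65), whose means were 1.31% and 2.61%.

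Along the chromosome, the mean over 13 tumours ran from 0.285% to 7.42% per bin with a median of 2.78%. In windows of 3 Mb, 10 bins each but for the last, the highest was 33000001 to 36000000 at 4.94%, the stretch of Camk4, Sil1, Epb41l4a and Ctnna1. There the 3 wild-type tumours held 4.86%, 3.97% and 4.25%, and the 4 heterozygous tumours 5.34%, 6.32%, 5.30% and 5.63%. The empty vector tumours held 5.56%, 4.99% and 4.90%, and the sFlk1 tumours 4.55%, 4.24% and 4.24%. So every heterozygous tumour lay above every wild-type one, and every sFlk1 tumour below every empty vector one. It was followed by the window of Zfp521 and Lama3 (12000001 to 15000000, 4.02%) and by that of Marchf3, Gramd3 and Zfp608 (54000001 to 57000000, 3.99%). The longest unbroken run of bins over 4% was 3.3 Mb, from 33300001 to 36600000. It held 45 protein-coding genes, among them Apc, the brake on Wnt signalling, Ctnna1, which ties cadherins to actin, and Kdm3b, a histone demethylase that is itself an oxygen-using dioxygenase.

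The lowest windows were the last one, of 3 bins, at 90000001 to 90702639 (0.684%), its neighbour at 87000001 to 90000000 with Dok6, Rttn and Cd226 (0.815%), and 27000001 to 30000000 (0.905%), which holds no protein-coding gene. Between the highest and the lowest window of 10 bins the level differed 6.06-fold. In the gene-free window the values were 0.916%, 0.823% and 1.19% in wild-type, 0.964%, 0.713%, 1.24% and 0.423% in heterozygous, 1.11%, 0.687% and 0.705% in empty vector and 0.971%, 0.850% and 1.16% in sFlk1 tumours. The groups overlapped there in both models. The longest run of bins under 1% was also 3.3 Mb, from 85200001 to 88500000 near the distal end, with 2 named genes: Neto1, an auxiliary subunit of glutamate receptors, and Cbln2, a synaptic organiser. A gene was counted only in the bin with most of its body. A bin or window described as without a gene, or gene-free, can thus hold part of a longer one. Zfp521 reaches into such a bin at 5.30%, and Dcc into the run under 1% from 72000001. Of the 44 bins under 1%, 34 were without a protein-coding gene by this count. Of the 81 bins over 4%, 7 were, and the gene classes that follow use the same count. Bins without a protein-coding gene had a mean of 1.87% ± 1.25 (SD over 109 bins), those with 1 or 2 genes 3.36% ± 1.70 (121 bins), those with 3 or 4 genes 3.95% ± 1.59 (37 bins) and those with 5 or more 3.90% ± 1.57 (26 bins). The last 2 classes differed by far less than their spread over bins. The Phd2 difference in these 4 classes was 0.327, 0.691, 0.927 and 1.05 percentage points (exact permutation p adjusted over the classes of 0.0857 for the first and 0.0762 for the others). The correlation of gene count with level was Spearman 0.484 over 293 bins (Pearson 0.208), as a description over bins that share their libraries.

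**Figure D1:**
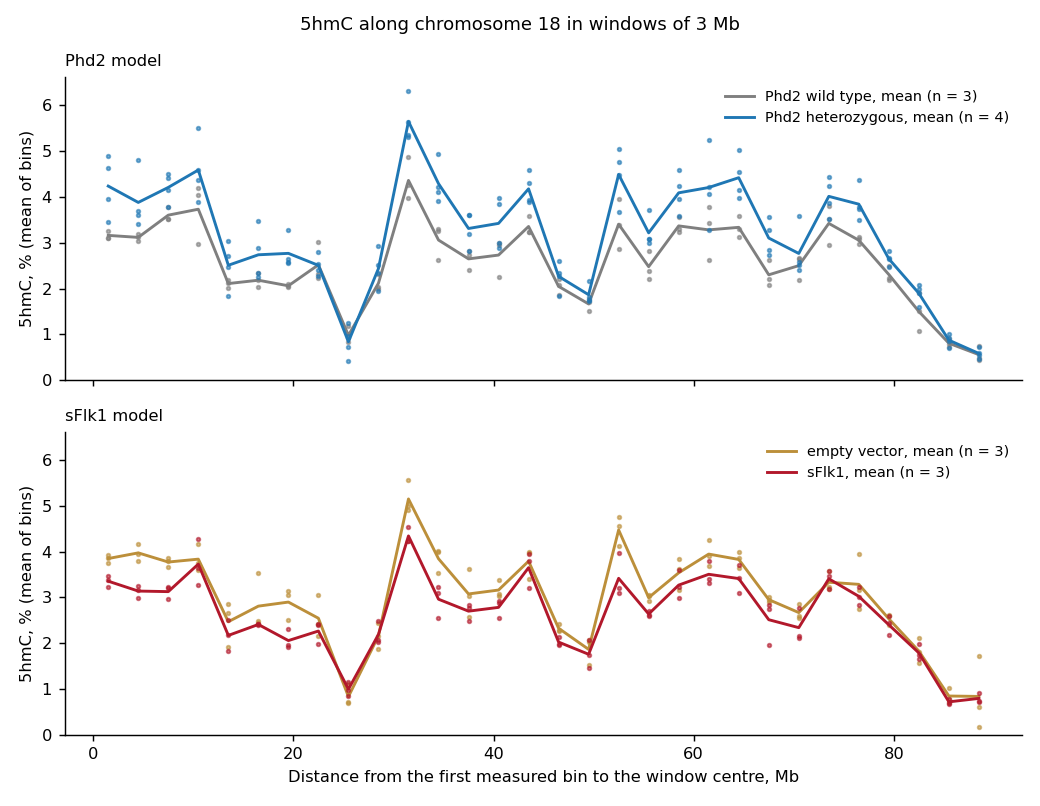
Mean 5hmC in percent in 30 windows of 3 Mb, against the distance in Mb from the first measured bin to the window's centre, for the Phd2 model (top) and the sFlk1 model (bottom). Lines are group means and dots single tumours. The highest window has 4.94% over the 13 tumours, and in the 3 windows under 1% the groups of each model overlap.

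The shape of the profile recurred from tumour to tumour. Profiles over the 293 bins correlated with Pearson r of 0.635 to 0.888 in 15 pairs within a group and 0.667 to 0.897 in 63 pairs between groups. Neighbouring bins correlated with r of 0.438 (sFlk1 tumour 3) to 0.607 within a tumour. Some borders were steep in every tumour. From the bin of Myot and Npy6r to that of Mcc and Dcp2 at 44400001 to 44700000 the level climbed from 1.97% to 7.10%, in 13 of 13 tumours. After the bin of Fam210a, Rnmt and Mc5r it dropped from 7.42% to 2.67% in the bin of Mc2r, again in 13 of 13. The bin of Garem1, Mep1b and Rnf138 (6.60%) was followed by a gene-free bin at 2.00%. These borders are the 3 largest steps between neighbours and were picked for their size.

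The 8 highest bins each held a known gene body. The first, 68100001 to 68400000, with Fam210a, Rnmt, which caps messenger RNA, and the melanocortin receptor gene Mc5r, had 6.85%, 5.08% and 6.09% in wild-type tumours and 10.9%, 10.3%, 9.40% and 7.49% in heterozygous ones. It had 5.78%, 6.54% and 8.30% in empty vector and 4.83%, 6.01% and 8.85% in sFlk1 tumours. In this bin the Phd2 groups did not overlap and the sFlk1 groups did. The second, 39300001 to 39600000, is that of Nr3c1, the glucocorticoid receptor, with 6.63%, 6.07% and 8.24% in wild-type and 7.30%, 9.73%, 8.75% and 9.16% in heterozygous tumours, groups that overlapped. The remaining 6 were the bins of Mcc and Dcp2 (7.10%), Marchf3 and Lmnb1 (6.96%), Sil1 and Ctnna1 (6.84%), Zfp532 and Malt1 (6.81%), Ldlrad4 and Cep192 (6.68%) and Sema6a (6.67%). Heterozygous means were higher than wild-type means in all 8 of these bins and sFlk1 means lower than empty vector means in 7. The exception, Sema6a, a transmembrane semaphorin, held 6.38% ± 2.20 (SD, n = 3) in empty vector and 6.70% ± 2.37 (SD, n = 3) in sFlk1 tumours. High bins in general showed the same directions. Of the 98 bins with a mean of 3.73% and above, 95 had a higher heterozygous mean and 76 a lower sFlk1 mean. The 8 bins were also picked by a mean that includes the compared tumours, and their counts were not tested. The lowest bins were the last, 90600001 to 90702639, at 0 in 12 tumours and 3.70% in empty vector tumour 3, so that its mean may stand for missing data, and 4 bins between 86100001 and 90300000, of which 1 holds Cbln2.

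The Phd2 comparison asks how 5hmC on the chromosome differed when tumours were better oxygenated. The chromosome's mean was 2.73%, 2.43% and 2.76% in the wild-type tumours and 3.31%, 3.68%, 3.18% and 2.87% in the heterozygous ones. The lowest heterozygous tumour, number 4, lay just above the highest wild-type one. Group means were 3.26% ± 0.335 (SD, n = 4) and 2.64% ± 0.183 (SD, n = 3), which is 0.617 percentage points (SE 0.198), or 23.4%, more. By exact two-sided permutation p was 0.0571, with 0.0286 the smallest that 35 arrangements allow, so the difference did not pass 0.05. For the median over bins the groups overlapped, at 2.97% against 2.50% (exact permutation p = 0.114). The limma fit over the 20 chromosome means gave an adjusted p of 2.38e-04 for it and called 95.0% of the chromosomes. That fit gave every chromosome the same SE of 0.150, pooled over chromosomes that share their tumours. Its p therefore counts chromosomes of the same tumour as if they were independent, and nothing is read from it.

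Relative to the other autosomes, which were 22.7% higher in heterozygous tumours, no further difference of the chromosome was detectable. The ratio of its mean to that of all other autosomal bins was 1.09, 1.08 and 1.11 in wild-type and 1.09, 1.12, 1.10 and 1.09 in heterozygous tumours. The groups overlapped, at 1.09 ± 0.0149 (SD, n = 3) for wild type and 1.10 ± 0.0147 (SD, n = 4) for heterozygous. Their difference of 0.00537 (SE 0.0113) had an exact permutation p of 0.629, and its sign changed without wild-type tumour 2 or heterozygous tumour 2.

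**Figure D2:**
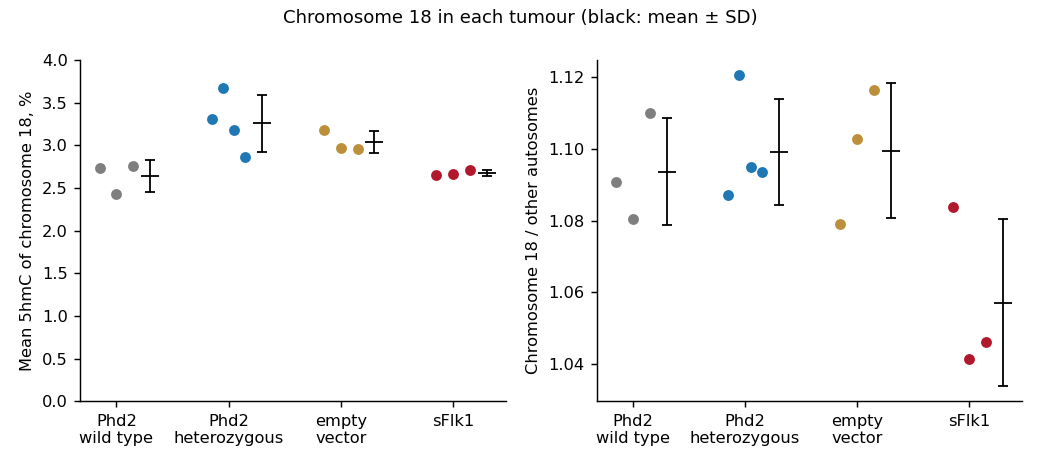
Mean 5hmC of chromosome 18 in percent (left) and its ratio to the mean of the other autosomes (right, axis not from 0) in each of 13 tumours, with group mean ± SD in black. Heterozygous tumours lie above wild-type tumours on the left. On the right these groups overlap, with heterozygous tumour 2 at 1.12 above every wild-type tumour, and the 3 sFlk1 tumours hold 1.08, 1.04 and 1.05.

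The difference was larger in bins that carried much 5hmC, though its exact test did not pass 0.05 in any class. The 293 bins were put into 3 classes by their mean over all 13 tumours, so the tumours compared also helped to set the classes. In the highest class, 98 bins from 3.73% and above, wild-type tumours held 4.73%, 3.95% and 4.63% and heterozygous tumours 5.81%, 6.63%, 5.36% and 5.15%, higher on average by 1.30 percentage points (SE 0.409), or 29.3%. Of these bins, 95 had the higher mean in heterozygous tumours. The middle class had 3.03% ± 0.312 (SD, n = 4) in heterozygous against 2.53% ± 0.135 (n = 3), and in both classes the groups did not overlap. In the lowest class, 98 bins up to 1.78%, heterozygous tumours had 1.00% ± 0.164 and wild-type tumours 0.957% ± 0.0813. The groups overlapped there and 49 bins had the higher heterozygous mean. Heterozygous tumours had the wider spread between these end classes, by 1.25 percentage points (SE 0.417, exact permutation p = 0.0571). By class, the exact permutation p was 0.0571, 0.0571 and 0.743, or 0.0857, 0.0857 and 0.743 after adjustment over the 3 classes.

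**Figure D3:**
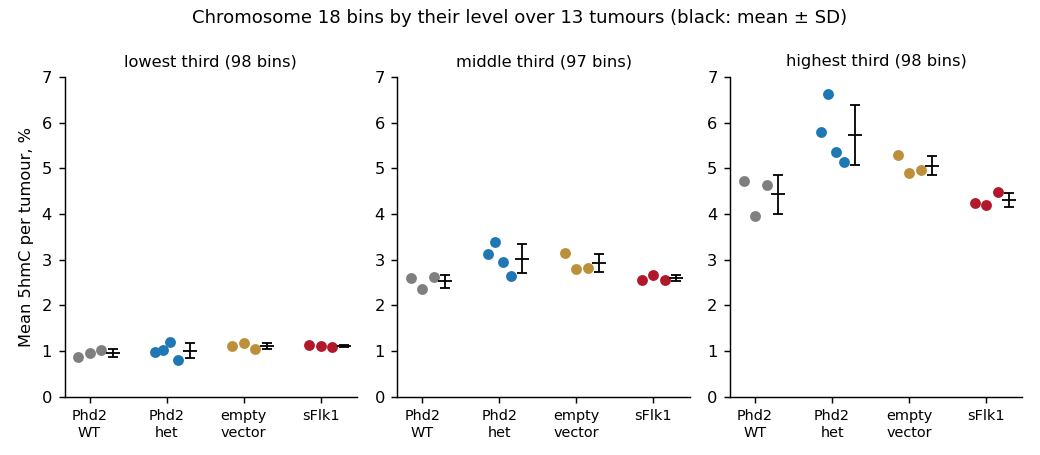
Mean 5hmC in percent per tumour in 3 classes of chromosome 18 bins, ranked by level over the 13 tumours (98, 97 and 98 bins), with group mean ± SD in black. In the lowest class the groups of each model overlap near 1%, and in the highest class heterozygous tumours reach 5.15% to 6.63% and sFlk1 tumours 4.20% to 4.49%.

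Over stretches of 15 Mb, the heterozygous mean was higher in all 6. The smallest difference was in 15000001 to 30000000, the stretch of Cdh2, the desmosomal cadherins and the gene-free window, with 2.27% ± 0.317 (SD, n = 4) against 1.97% ± 0.0935 (SD, n = 3), or 15.4%, and overlapping groups. The largest was in 30000001 to 45000000, which holds 196 protein-coding genes, Apc, Nr3c1 and the protocadherins among them, with 3.82% ± 0.381 against 2.98% ± 0.285, or 28.1%, and no overlap. After adjustment over the 6 stretches 0 passed the exact permutation test (adjusted p of 0.0857 to 0.171), while limma on windows, which pools the spread, made the calls that follow.

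In 3 Mb windows, 28 of 30 had the higher mean in heterozygous tumours, against 94.6% of the 868 windows of the genome. With each tumour scaled to a common median it was 18 of 30. limma called 10 of the 30 windows at an adjusted p under 0.05, all higher in heterozygous tumours, against 23.7% of all windows. At an unadjusted p under 0.05 there were 17 higher (50.1% of all windows) and 0 lower (0.115% of all windows). The groups did not overlap, with the heterozygous side higher, in 13 windows (38.7% of all windows). The median difference was 0.678 percentage points on the chromosome and 0.517 over all windows. The 10 called windows differed by 0.708 to 1.29 percentage points, or 24.5% to 40.3% (limma adjusted p of 0.0319 to 0.0484), and in 9 of them the groups did not overlap. All 10 calls were lost with tumours scaled to a common median, with the 7 tumours of this model fitted alone, and without heterozygous tumour 1 or 2 or wild-type tumour 2 or 3, and 1 was left without wild-type tumour 1. Without heterozygous tumour 4 the count was 21. Like the fit over chromosomes, this fit pools the spread over windows of the same tumours as if they were independent. Its adjusted p-values carry the same limit, and the exact test passed in no stretch. The called windows are therefore given as a description of where the fit placed the difference.

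By gene, the called windows begin with 3000001 to 6000000 at the centromeric end. It holds Zeb1, a repressor of epithelial genes, and Svil, an actin-binding protein. Wild-type tumours held 3.26%, 3.11% and 3.11% and heterozygous tumours 4.64%, 4.90%, 3.96% and 3.45% (limma difference 1.08, SE 0.306, adjusted p = 0.0319). The relative difference was widest in 36000001 to 39000000, with 100 protein-coding genes that include the clustered protocadherins, Cd14, Hbegf and Spry4. Values were 3.25%, 2.61% and 3.31% against 4.10%, 4.94%, 4.21% and 3.92% (limma difference 1.23, SE 0.300, adjusted p = 0.0319). The highest window of the chromosome, with Ctnna1 and Apc, had the largest absolute difference (limma 1.29, SE 0.361, adjusted p = 0.0319). The window of Ldlrad4, Ccbe1, a gene of lymphatic vessel growth, and Spire1, 66000001 to 69000000, held 3.34% ± 0.239 (SD, n = 3) against 4.42% ± 0.467 (SD, n = 4), and that of Marchf3 and Zfp608, 54000001 to 57000000, held 3.40% ± 0.555 against 4.49% ± 0.593, the called window whose groups overlapped. The remaining 5 were those of Ccdc178, Dtna and Nol4 (21000001 to 24000000), Kcnn2 and Sema6a (45000001 to 48000000), Chsy3 and Fbn2 (57000001 to 60000000), Dcc, Tcf4 and Mbd2 (69000001 to 72000000) and Setbp1 and Nfatc1 (78000001 to 81000000). In the last of these the wild-type tumours held 3.12%, 2.96% and 3.08% and the heterozygous tumours 3.73%, 4.36%, 3.49% and 3.79%. The call of a window is not a call of each gene in it, and no single bin was called. In the bin with most of the gene the difference was -0.0709 percentage points for Dcc, 0.128 for Kcnn2 and 0.259 for Zeb1, but 1.45 for Tcf4 and 2.34 for Spry4. Of the 2 windows without a higher heterozygous mean, one was the gene-free window at 27000001, with 0.976% ± 0.191 (SD, n = 3) in wild-type and 0.836% ± 0.350 (SD, n = 4) in heterozygous tumours. The other was the neighbour at 24000001 to 27000000 with Fhod3, Celf4 and Galnt1, at 2.52% ± 0.425 and 2.51% ± 0.225.

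Single bins gave no calls. In simulated data with 200 bins raised in heterozygous tumours, the same fit found 0 of them at 1.0 point added and 86 at 2.0. With only 200 of 8576 bins raised, a difference of the size of the chromosome's, 0.617 points, would thus have been missed. A shift in most bins was not simulated, so what the fit could find in that setting is not known. Of the 293 bins, 224 had the higher mean in heterozygous tumours (76.5%, against 75.1% of all bins), and limma called 0 after adjustment, as it called 0.0% of all bins. The groups did not overlap in 29 bins with the heterozygous side higher (11.0% of all bins) and in 0 with it lower (0.933%). At an unadjusted p under 0.05 there were 35 higher bins (11.9%, against 10.4% of all bins) and 0 lower ones (0.443% of all bins). The 5 with the smallest p each had a limma adjusted p of 0.324. The first, 60300001 to 60600000, holds Dctn4, a subunit of the dynein adaptor dynactin, and the interferon-induced GTPase gene Iigp1, with 3.26%, 2.45% and 2.79% in wild-type and 5.94%, 5.51%, 4.74% and 4.78% in heterozygous tumours. In the bin of Garem1 and Rnf138, 21000001 to 21300000, values were 4.84%, 3.77% and 4.47% against 7.58%, 10.1%, 6.57% and 8.08%. The groups did not overlap in either bin. The others were the bins of Ldlrad4 and Cep192 (8.21% ± 1.47, SD, n = 4, against 4.81% ± 0.246, n = 3) and of Nrg2, a ligand of ErbB receptors, and Pura (8.19% ± 1.77 against 5.02% ± 0.819), and the bin at 78600001 to 78900000 (5.05% ± 0.317 against 2.98% ± 0.514). That bin holds most of no protein-coding gene, but the body of Setbp1, from 78750378 to 79110444, lies partly in it. At the other end stood the bins of Celf4, a neural RNA-binding protein (1.35% ± 0.772 against 2.28% ± 0.667), of Cdh2, which encodes N-cadherin (1.88% ± 0.700 against 2.76% ± 0.227), and 3 without a gene, all lower in heterozygous tumours, with limma adjusted p of 0.478 to 0.587.

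The sFlk1 comparison turns to tumours with more hypoxia, and as it chose the chromosome its values are a description. Empty vector tumours had chromosome means of 3.18%, 2.97% and 2.95%, and sFlk1 tumours of 2.65%, 2.66% and 2.71%. The sFlk1 tumours lay close together and below all 3 empty vector tumours. The difference of -0.359 percentage points (SE 0.0775), or -11.8%, stood just inside the rule, and chromosomes 4 (-0.289) and 13 (-0.286) just outside it. With any 1 of the 6 tumours left out chromosome 18 kept the first rank, with a difference from -0.284 (without empty vector tumour 1) to -0.400 percentage points. These subsets reuse the tumours that chose the chromosome, so the rank is no separate support for the choice. The other autosomes differed by -0.230 percentage points (SE 0.105), or -8.33%. The ratio of the chromosome to the other autosomes was 1.08, 1.10 and 1.12 in empty vector and 1.08, 1.04 and 1.05 in sFlk1 tumours, so that sFlk1 tumour 1 lay within the range of the empty vector group and sFlk1 tumours 2 and 3 below it.

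By level, the lower values were again in the bins with much 5hmC. In the highest class the empty vector tumours held 5.29%, 4.91% and 4.97% and the sFlk1 tumours 4.24%, 4.20% and 4.49%, which differ by -0.750 percentage points (SE 0.151), or -14.8%. The groups did not overlap there. The middle class differed by -0.327 percentage points (SE 0.116), or -11.2%. In the lowest class both groups had 1.11% (SD 0.0647 for empty vector and 0.0252 for sFlk1, n = 3 each) and overlapped.

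The differences were unevenly spread along the chromosome. Over the first 5 stretches of 15 Mb the sFlk1 difference ran from -0.332 to -0.521 percentage points, or from -11.2% to -14.4%, with no overlap of the groups. Over the distal stretch from 75000001 to 90702639 it was 2.18% ± 0.134 (SD, n = 3) against 2.28% ± 0.171 (SD, n = 3), a difference of -0.0938 (SE 0.126), and the groups overlapped. That stretch made up 18.1% of the bins and 4.73% of the summed difference. The stretch from 15000001 to 30000000, whose mean over all tumours was lower (2.14% against 2.30%), differed by -0.332 percentage points (SE 0.102). The stretch with the lower level thus had the larger difference of these.

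Of the 30 windows, 27 had a lower mean in sFlk1 tumours (76.6% of all windows did), and 19 of 30 did with tumours scaled to a common median. The groups did not overlap in 12 of the 30, all lower in sFlk1 (16.7% of all windows). Of the bins, 184 had a lower mean (59.5% of all bins did). In 34 bins the sFlk1 tumours all lay below the empty vector tumours (8.24% of all bins) and in 13 all above (3.43%). Nothing is read from these shares, as the chromosome was chosen for this difference. The 5 windows that differed most held 42.1% of the summed difference, and the other 243 bins still differed by -0.251 percentage points.

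The window that differed most was 54000001 to 57000000, with Marchf3, Gramd3, Zfp608 and Aldh7a1, where empty vector tumours held 4.75%, 4.12% and 4.56% and sFlk1 tumours 3.09%, 3.97% and 3.20%. sFlk1 tumour 2 lay close to the lowest empty vector tumour and the others far below. In 36000001 to 39000000, the window of the protocadherins, Hbegf and Spry4, values were 4.01%, 4.00% and 3.53% against 3.09%, 2.56% and 3.24%. In 21000001 to 24000000, with Dtna, Nol4 and Asxl3, they were 3.06%, 3.14% and 2.50% against 2.30%, 1.95% and 1.92%, or -29.0%, the largest relative difference of a window. In these windows the 2 groups did not overlap. The proximal run from 3000001 to 12000000, which includes Zeb1, Epc1 and Gata6, was lower by 17.0%. Windows with a higher sFlk1 mean were the gene-free one at 27000001 (0.995% ± 0.158, SD, n = 3, against 0.834% ± 0.238), that of Zbtb7c, Dym and Ctif at 75000001 to 78000000 (3.41% ± 0.208 against 3.33% ± 0.212) and that of Rit2, Wdr33 and Pik3c3 at 30000001 to 33000000 (2.19% ± 0.255 against 2.16% ± 0.281), and in all 3 the groups overlapped.

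Among single bins, that of Gata6, a zinc-finger factor of endoderm and heart, stood first by the difference divided by its limma SE. That SE shares the spread of all 4 groups, unlike the SE of the sFlk1 and empty vector groups alone that is given with the differences above. The order by the latter can differ. Empty vector tumours held 5.08%, 5.51% and 5.42% there and sFlk1 tumours 4.00%, 1.79% and 2.31%, while the Phd2 groups held 4.14% ± 0.614 (SD, n = 3) and 3.95% ± 0.304 (SD, n = 4). Among the next were the bin of Nrep, at 33300001 to 33600000, with 5.25%, 4.61% and 4.89% against 2.47%, 3.22% and 2.34%, and gene-free bins at 55800001 (4.18% ± 0.306, SD, n = 3, against 2.16% ± 0.614), 73200001 (4.26% ± 0.961 against 2.32% ± 0.516) and 23100001 (2.14% ± 0.485 against 0.974% ± 0.518). In the opposite direction, the bin of the galanin receptor gene Galr1 held 1.14%, 0.860% and 1.26% in empty vector and 2.38%, 2.16% and 2.93% in sFlk1 tumours. The bin of Zbtb7c, a zinc-finger repressor, held 3.23%, 3.07% and 2.93% against 3.64%, 6.29% and 4.79%. The other 3 held no protein-coding gene and lay at 0.426% to 0.806% over all tumours, among the low bins of the chromosome.

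Set side by side, the 2 models share no tumours. Of the 30 windows, 26 had both a higher heterozygous mean and a lower sFlk1 mean, against 75.0% of all windows. Of the bins 154 did, against 46.8% of all bins. Across windows the 2 differences correlated with Pearson r of -0.671 (Spearman -0.660, n = 30), and over all 868 windows with r of -0.527. The Phd2 difference correlated with the level itself at 0.875 and the sFlk1 difference at -0.563, so that both share their dependence on level. At 75000001 to 78000000, with Zbtb7c, Dym, Smad7 and Smad2, the heterozygous mean was 17.3% higher and the sFlk1 mean 2.26% higher than its control.

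**Figure D4:**
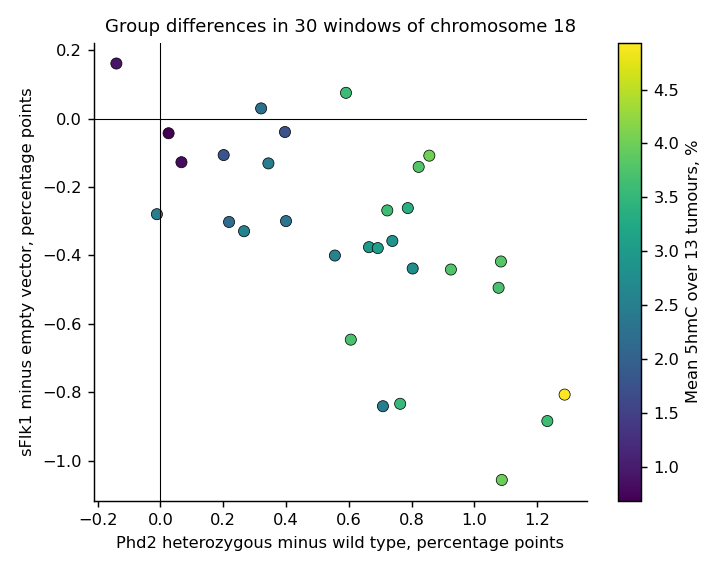
Difference between Phd2 heterozygous and wild-type means (horizontal) and between sFlk1 and empty vector means (vertical), both in percentage points of 5hmC, for 30 windows of chromosome 18, coloured by mean level over 13 tumours. Of the 30 points, 26 lie at the lower right, and the 3 windows under 1% lie near the origin.

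Genes of the chromosome were followed through lists by role. All 69 listed genes matched the gene table and lay in 58 bins. A value belongs to the bin that holds most of the gene and to all genes in it. Over the lists, 57 of 69 genes (47 of 58 bins) had the higher mean in heterozygous tumours, against 75.1% of all bins, and limma called 0 of them. The median difference was 0.757 percentage points, against 0.487 over the bins of the chromosome and 0.385 over all bins, and the median level 3.45%. The listed bins all hold genes, while the other 2 sets include gene-free bins of low level, so the medians are not of like bins. In sFlk1 tumours 52 of 69 genes had the lower mean (43 of 58 bins), against 59.5% of all bins. The median difference was -0.483 percentage points, against -0.267 over the bins of the chromosome and -0.146 over all bins. With tumours scaled to a common median, 40 of 69 genes were higher in heterozygous tumours. The counts by list that follow stand against the same shares of all bins, 75.1% and 59.5%, and were not tested. Some bins enter more than 1 list. That from 60900001 holds Csf1r, Pdgfrb and Camk2a, of the leukocyte, stromal and neural lists.

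Of the 8 genes of growth control, 6 had a higher mean in heterozygous tumours and 8 a lower one in sFlk1 tumours. Mcc had the highest level, 7.10%. Its bin held 9.03%, 6.28% and 8.22% in empty vector and 4.71%, 5.19% and 5.14% in sFlk1 tumours, groups that did not overlap. Dcc, the netrin receptor gene, had the lowest, 0.788%, for the bin with 27.3% of its long body. Smad2, a signal carrier of TGF-beta, had the smallest p of the list, at 4.02% ± 0.738 (SD, n = 4) with Phd2 heterozygous against 2.40% ± 0.174 (SD, n = 3) with wild type (limma adjusted p = 0.342). Apc held 6.67% ± 1.09 against 4.95% ± 0.706, while Smad4 held 4.55% ± 1.38 against 4.62% ± 0.993.

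Of the 10 genes of chromatin and of methyl-CpG readers, 9 had a higher heterozygous mean and 8 a lower sFlk1 mean. Setbp1 had the highest level (6.36%) and Asxl3, a Polycomb deubiquitinase partner, the lowest (1.06%). Mbd2, which binds methylated CpG, held 4.25% ± 0.841 (SD, n = 4) against 2.72% ± 1.09 (SD, n = 3; limma adjusted p = 0.410). Mbd1 and Cxxc1, which bind methylated and unmethylated CpG, share a bin that held 3.14% ± 0.670 against 3.01% ± 0.0881. Of the 11 adhesion genes, in 6 bins, 10 had a higher heterozygous mean and 11 a lower sFlk1 mean. The bin of Pcdh1 and of Pcdh12, an endothelial protocadherin, had the highest level (4.32%) and the smallest p, with 5.76% ± 0.559 (SD, n = 4) against 3.92% ± 1.41 (SD, n = 3; limma adjusted p = 0.376). Lama3, a laminin chain of epithelial basement membrane, had the lowest level (2.41%). The desmosomal genes Dsg2, Dsg3 and Dsg4 share a bin of 3.95%, and Dsc1, Dsc2 and Dsc3 one of 2.57%.

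Of the 11 transcription factors, 10 had a higher heterozygous mean and 8 a lower sFlk1 mean. Nr3c1 was the highest (7.24%) and Onecut2 both the lowest (1.51%) and the one with the smallest p, 2.03% ± 0.341 (SD, n = 4) against 1.20% ± 0.139 (SD, n = 3; limma adjusted p = 0.476). Of 9 stromal, vessel and growth factor genes, 8 had a higher heterozygous mean and 6 a lower sFlk1 mean. Fgf1 was the highest (5.67%) and Lox, a HIF-induced collagen crosslinker, the lowest (1.97%). Spry4, a brake on receptor tyrosine kinase signals, held 6.22% ± 1.43 (SD, n = 4) against 3.88% ± 0.744 (SD, n = 3; limma adjusted p = 0.342). Its sFlk1 value was 3.79% ± 0.159 (SD, n = 3) against 5.30% ± 1.21 (SD, n = 3).

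All 5 leukocyte genes had a higher heterozygous mean and 2 of 5 a lower sFlk1 mean. Cd74, the invariant chain of MHC class II, was the highest (6.11%) and Camk4 the lowest (2.64%). Cd14, a coreceptor for bacterial lipopolysaccharide, lay in a bin with 2.07%, 1.35% and 1.98% in wild-type and 3.32%, 3.97%, 3.69% and 3.40% in heterozygous tumours (limma adjusted p = 0.337). Of 10 neural and hormone receptor genes 7 had a higher heterozygous mean and 5 a lower sFlk1 mean, with a median level of 1.77%. Syt4, a synaptotagmin, was the lowest of all listed genes (0.764%). Mc5r was the highest and had the smallest p through the bin it shares with Rnmt and Fam210a (limma adjusted p = 0.337). The 5 clustered protocadherin genes, in 4 bins, held 0.779% at Pcdha1, 0.889% at Pcdhb1, 1.02% at Pcdhb22 and Pcdhga1, and 3.52% at Pcdhgc5, whose bin also holds Hdac3. Of these, 2 of 5 had a higher heterozygous mean, while the 3 Mb window around them was among those called.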

How the data were processed

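TAB-seq of 13 tumours was used as 1 deposited table, in which the authors give the 5hmC percent in 300 kb bins, with 1 column per tumour and no read counts. Per the submitters' processing notes Bismark 0.13.1 and mm9 were used, with no role given. Pooling within bins and coverage filters are not stated in the labels. The last bin of chromosome 18 ends at 90702639, the length of the chromosome in GRCm38, so genes were placed by the GRCm38.p6 RefSeq table, each in the bin with most of its body. Per-tumour values are unweighted means over bins. Groups came from titles. limma 3.58.1 (R 4.3.3) was fitted with a trend to all 13 tumours (4 group means) over all 8576 bins or 868 windows of 3 Mb, with Benjamini-Hochberg adjustment at 0.05; single values were tested by exact two-sided permutation. The fit was tested on simulated data with independent noise in each bin or window, without the shifts that a whole tumour can share. With 1.0 point added to 200 windows it found 159 of them, and with 1.0 point added to 200 bins it found 0. Members and lists were chosen with earlier results of these data known. Stretches, bins and genes were named by rank of level or difference, the longest bodies first. Same-numbered tumours of 2 groups are different mice and did not deviate together (r from -0.0934 to -0.00429 over 6 pairs). Pairs of different number had r from -0.0554 to 0.0787. Numbers were therefore not used as pairs in the main tests. These correlations cannot show that the numbers carry no shared handling. Replicates are tumours of different mice by the titles.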

Additional observations from a re-analysis of the deposited data

Results flagged for a closer look

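Among the 4 Phd2 heterozygous tumours, 1 tumour stood apart from the rest in 5 of 72 sets of values examined, where chance gives about 1 in 20. The ratio is the gap to the nearest tumour over the whole range. Tumour 2 was high in the window of Ccdc178, Dtna and Nol4 (2.64%, 3.28%, 2.56% and 2.59%, ratio 0.887), in that of Chsy3 and Fbn2 (3.09%, 3.71%, 3.08% and 2.98%, ratio 0.857), in the window from 72000001 (2.50%, 3.58%, 2.57% and 2.40%, ratio 0.854) and in the gene-free bin from 41400001 (0.374%, 0.967%, 0.465% and 0.430%, ratio 0.847). Tumour 3 was low in the bin of Ldlrad4 and Cep192 (8.63%, 9.10%, 6.02% and 9.07%, ratio 0.848). The first 2 of these windows are among the 10 called in the Phd2 contrast.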

How the results depend on the processing

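Of the results on the chromosome as a whole, the Phd2 difference kept its direction in all runs. It was 0.477 to 0.747 percentage points with 1 tumour left out. By limma over the 20 chromosomes it was 0.617 (adjusted p = 2.38e-04), and 0.747 with the replicate number as a block (adjusted p = 1.15e-05). These limma p-values treat chromosomes of the same tumours as independent, so they do not outweigh the permutation test, which did not pass. Heterozygous tumour 4 has no partner of its number, so the replicate block also takes it out of the contrast, and leaving it out alone gives the same 0.747. The ratio to the other autosomes reversed with medians over bins (-0.0160) and without heterozygous tumour 2 (-0.00178) or wild-type tumour 2 (-0.00120), and ranged up to 0.0135 with 1 tumour left out. The 10 called windows became 1 on the log2 scale, 0 with scaling to a common median, 16 with sample weights, 0 with the 2 groups alone, 21 with the replicate block and 0 of 59 in windows of 1.5 Mb, and ranged from 0 to 21 with 1 tumour left out. Without heterozygous tumour 4, and no block, the count was also 21, so blocking and its loss cannot be told apart. The cause was not tested. In the same fits the called windows of the whole genome were 32, 0, 446, 1, 447 and 3 in that order. Called bins stayed at 0 in every fit, the replicate block included. The sFlk1 difference was -0.121 on the log2 scale and -0.0423 as a ratio, which are other units, and -0.284 to -0.400 with 1 tumour left out. Windows lower in sFlk1 tumours were 44 of 59 at 1.5 Mb and 16 of 16 at 6 Mb, and 24 to 29 of 30 with 1 tumour left out. The level gap (0.959 to 1.45), the called stretches (0 to 0) and the listed genes higher (55 to 62) kept their direction with 1 tumour left out. Depth is unknown, and with 3 or 4 tumours a group exact tests cannot go below 0.0286 or, for 3 against 3, 0.10.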
